A study of Homo sapiens with 6 samples.

Results

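A block of neighbouring genes on the long arm of chromosome 18, running from SS18 to just past MAPK4, was compared between H69 and H69M, a pair of human small cell lung cancer lines, with 3 arrays of each. The members were chosen by their measured fold changes between the lines on these same arrays, as neighbours that read lower in H69M, so the fold changes below describe them and support nothing by themselves. Of 42 listed genes, 41 were measured, of 18404 genes on the arrays; the other is not analysed here. The table of reference genes places ME2 and ELAC1 after MAPK4, so 39 of the measured members lie between the named ends and 2 just beyond. H69 is a classic neuroendocrine line, and the labels list H69M as small cell lung cancer too, with no treatment or origin given. Total RNA of each culture was hybridised to Affymetrix whole-transcript arrays. Values are log2 expression, in which a difference of 1 is a doubling, and fold changes are H69M minus H69.

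Genes that sit side by side on a chromosome can change together when a segment is lost or gained, since each transcript then tends to follow the number of gene copies by a common ratio, or when a shared domain of chromatin is opened or closed. They can also change one by one, each under its own promoter. The long arm of chromosome 18 is often lost in carcinomas and carries SMAD4 and DCC beyond the listed block. DNA copy number was not measured here, and its part in the values below was not tested.

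The members did not shift by 1 common ratio. Their median log2 fold change was -0.43, but single members ranged from -2.03 for MAPK4 to 2.38 for LIPG. Of the 41 members, 36 lay below 0 and 5 above it, against 57.0% of all genes below 0. The standard deviation of the fold changes over members was 0.84, which was 11.4 times the median standard error of a single member (0.074). Over all genes that standard deviation was 0.71, so fold changes also differed widely from gene to gene outside the block. The 95% limma interval held the members' median for 12 of them, lay wholly below it for 13 and wholly above it for 16. If each transcript followed gene copies exactly, a loss from 2 copies to 1 would give -1. From 3 copies to 2 it would give -0.58, and from 4 to 3 -0.42. The intervals of 5, 10 and 12 members held these values. Transcripts need not follow copies exactly, and whether copies changed was not tested. Such arrays compress folds, most of all at low signal, so a copy ratio may not be read at its full size.

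The label of the block as lower in H69M did not hold for every member. With limma and a Benjamini-Hochberg threshold of 0.05 over all genes, 29 members were lower, beside 23.2% of all genes called lower, and 5 were higher, beside 21.0% called higher. Every H69M array was below every H69 array for 33 members, beside 30.0% of all genes, and above for 5, beside 25.8%. Nothing is read from these shares, because the members were listed on this same comparison. By bands set after the values were seen, 24 members lay between -0.7 and -0.1 (median -0.34, SD 0.18), 11 lay below -0.7 and KATNAL2 alone lay between -0.1 and 0. A shallow shift of most members thus stood beside a smaller set with deep falls and 5 genes that read higher.

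**Figure D1:**
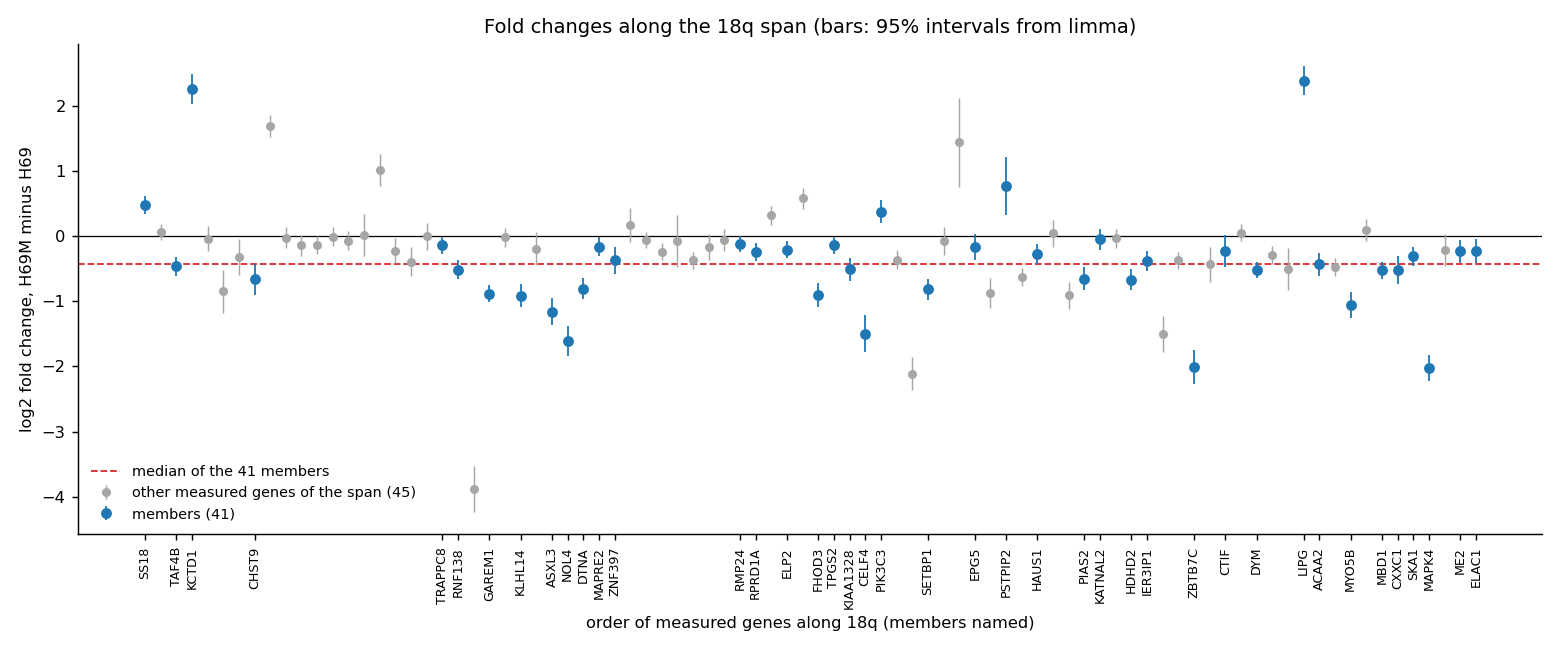
The 86 measured genes between SS18 and ELAC1 in chromosome order (horizontal axis) with their log2 fold change, H69M minus H69 (vertical axis); blue points are the 41 members, grey points the 45 other genes, and bars are 95% limma intervals. Most blue points lie a little under 0, MAPK4 and ZBTB7C near -2, and LIPG and KCTD1 above 2.

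LIPG and MAPK4, the members at the extremes, are shown by their promoters, each beside that of a neighbouring member with a shallow negative value. The stretches are the 250 bases before each gene's start, 5′ to 3′ on the gene's own strand, from RefSeq (GRCh38.p14), with each CG dinucleotide, the site of DNA methylation, in capitals. LIPG lies on the plus strand at chr18:49561807-49562056, ACAA2 on the minus strand at chr18:49813534-49813783, SKA1 on the plus strand at chr18:50374796-50375045 and MAPK4 on the plus strand at chr18:50559837-50560086.
LIPG: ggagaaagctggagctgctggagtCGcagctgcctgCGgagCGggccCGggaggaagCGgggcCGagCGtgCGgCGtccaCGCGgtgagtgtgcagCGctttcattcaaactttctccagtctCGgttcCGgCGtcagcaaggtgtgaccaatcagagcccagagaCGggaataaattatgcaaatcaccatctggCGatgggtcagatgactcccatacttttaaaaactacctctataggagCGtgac
ACAA2: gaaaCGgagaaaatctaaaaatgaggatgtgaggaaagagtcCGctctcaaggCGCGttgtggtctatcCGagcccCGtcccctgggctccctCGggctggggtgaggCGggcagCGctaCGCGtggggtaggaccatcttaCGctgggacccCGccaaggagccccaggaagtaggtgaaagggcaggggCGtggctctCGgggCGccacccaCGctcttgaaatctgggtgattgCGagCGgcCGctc
SKA1: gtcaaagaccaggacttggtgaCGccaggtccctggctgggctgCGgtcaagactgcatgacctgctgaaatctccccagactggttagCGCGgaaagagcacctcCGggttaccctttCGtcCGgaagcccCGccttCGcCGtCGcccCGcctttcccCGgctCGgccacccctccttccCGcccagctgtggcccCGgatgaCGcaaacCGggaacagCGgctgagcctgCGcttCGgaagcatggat
MAPK4: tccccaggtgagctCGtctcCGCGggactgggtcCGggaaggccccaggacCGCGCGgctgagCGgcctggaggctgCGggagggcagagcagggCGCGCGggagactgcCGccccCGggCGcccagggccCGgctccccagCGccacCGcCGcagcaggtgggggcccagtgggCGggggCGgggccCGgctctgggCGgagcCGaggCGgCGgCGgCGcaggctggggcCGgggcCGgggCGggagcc
The stretches of LIPG, ACAA2, SKA1 and MAPK4 held 18, 20, 21 and 31 CG dinucleotides. In the full windows of 300 bases the counts were 23, 27, 28 and 39, and 35.8%, 28.2%, 26.2% and 8.71% of all 35116 windows held as many or more. Windows were found for 35 of the 41 members. The highest CG count of a member's windows had a median of 28, against 16 over all genes in the table. Those genes were not matched to the members by expression level, and 38 members lay at or above the all-gene median over the 6 arrays. With the bands between -0.7 and 0 joined, the highest CG count had a median of 32.5 in 10 members below -0.7. It was 30.5 in 20 members between -0.7 and 0, and 23 in the 5 members above 0. The ranges of these counts overlapped between the bands (10 to 47, 19 to 55 and 21 to 31). Methylation was not measured.

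LIPG, which encodes endothelial lipase, read 5.66, 5.46 and 5.52 on the H69 arrays and 7.82, 8.12 and 7.85 on the H69M arrays, a fold change of 2.38 ± 0.095 (log2, SE; 5.22-fold). All H69M arrays were far above all H69 arrays. ACAA2, the mitochondrial thiolase that closes fatty acid beta oxidation and the next measured gene, read 9.36, 9.31 and 9.12 in H69 and 8.86, 8.78 and 8.86 in H69M (-0.43 ± 0.076). On the other side of LIPG among the members lies DYM, which encodes the Golgi protein dymeclin. DYM was among the tightest measurements of the block, at 11.43, 11.42 and 11.45 in H69 and 10.93, 10.89 and 10.91 in H69M (-0.52 ± 0.053). A gene higher by more than 2 log2 units thus stood between members lower by about 0.5.

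MAPK4, an atypical MAP kinase (ERK4), had the deepest difference. It read 9.60, 9.58 and 9.51 in H69 and 7.71, 7.45 and 7.45 in H69M (-2.03 ± 0.083, 4.07-fold lower). Its neighbour SKA1, a kinetochore protein that holds chromosomes to spindle microtubules, read 8.53, 8.63 and 8.59 in H69 and 8.21, 8.25 and 8.35 in H69M (-0.31 ± 0.063). The groups did not overlap for either gene, and the interval of MAPK4 (-2.22 to -1.83) and that of SKA1 (-0.46 to -0.17) were far apart. Over the 40 pairs of adjacent members the absolute difference in fold change had a median of 0.63 and a maximum of 2.92, and 11 pairs differed by more than 1. The longest unbroken run of members below 0 was 17, from CHST9 to CELF4; with all measured genes of the span counted it was 15, from TTR to ZNF397.

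Among the 12 chromatin and transcription genes, 10 read lower and 2 higher. ZBTB7C, a BTB zinc finger repressor, read 8.44, 8.52 and 8.52 in H69 and 6.68, 6.54 and 6.22 in H69M (-2.01 ± 0.11). NOL4, a nucleolar protein of neural tissue, read 10.63, 10.47 and 10.52 in H69 and 9.14, 8.84 and 8.81 in H69M (-1.61 ± 0.099). ASXL3, a Polycomb-related partner of the deubiquitinase BAP1, read 8.40, 8.43 and 8.34 in H69 and 7.41, 7.07 and 7.21 in H69M (-1.16 ± 0.090). In all of these genes the H69M arrays lay well under the H69 arrays, with H69M replicate 1 nearest to H69. SETBP1, which binds the histone chaperone SET, stood at -0.82 ± 0.071. The SUMO ligase gene PIAS2 stood at -0.65 ± 0.076. MBD1, a reader of methylated CG sites, and CXXC1, which recruits the SET1 methyltransferase to unmethylated ones, had nearly equal values of -0.53 ± 0.058 and -0.52 ± 0.090. TAF4B, a variant subunit of the general factor TFIID, stood at -0.46 ± 0.063, the zinc finger gene ZNF397 at -0.37 ± 0.087 and RPRD1A, which binds the tail of RNA polymerase II, at -0.25 ± 0.059.

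Against these, KCTD1 and SS18 read higher in H69M. KCTD1, a repressor of AP-2 transcription factors, read 5.67, 5.62 and 5.74 in H69 and 7.73, 8.12 and 7.94 in H69M (2.25 ± 0.099, 4.76-fold). It lies between TAF4B and CHST9, both lower. SS18, a subunit of the BAF chromatin remodelling complex and a fusion partner in synovial sarcoma, read 8.79, 8.78 and 8.88 in H69 and 9.28, 9.28 and 9.32 in H69M (0.47 ± 0.058). SS18 is the first gene of the block, and the gene just before it, ZNF521, was also higher (0.71 ± 0.063; limma Benjamini-Hochberg adjusted p = 5.81e-05). The gene just after the last member, SMAD4, was lower (-0.50 ± 0.060; limma adjusted p = 0.000279).

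**Figure D2:**
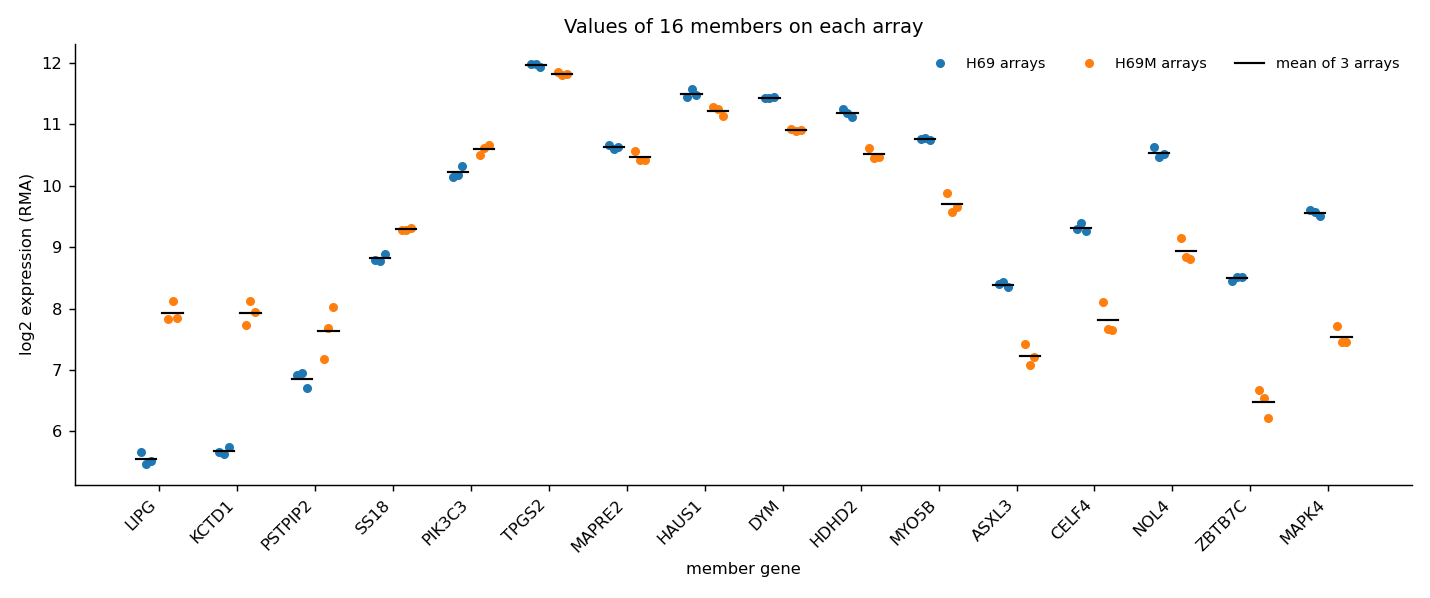
Log2 expression (vertical axis) of 16 members on each of the 3 H69 arrays (blue) and 3 H69M arrays (orange), with the mean of each line as a black bar. The genes are set from the most raised at the left, LIPG, to the deepest fall at the right, MAPK4; in none of the 16 do the arrays of the lines overlap.

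The 4 measured genes of ubiquitin and kinase signalling were all lower, with a median of -0.90. Beside MAPK4 these were KLHL14, a BTB and kelch protein (-0.91 ± 0.076), GAREM1, an adaptor between the EGF receptor and GRB2 (-0.89 ± 0.057), and RNF138, a ubiquitin ligase of DNA break repair (-0.52 ± 0.065). All 5 genes of RNA binding, tRNA processing and translation lay below 0 with a median of -0.22, and 1 stood out. CELF4, a neuronal regulator of splicing and translation, read 9.29, 9.39 and 9.26 in H69 and 8.11, 7.67 and 7.65 in H69M (-1.50 ± 0.12). The H69M arrays spread more than the H69 arrays here but stayed below them. ELAC1, a tRNA end-processing enzyme, stood at -0.23 ± 0.078, CTIF, a cap-binding translation factor, at -0.22 ± 0.11 with overlapping arrays, ELP2, a subunit of the tRNA-modifying Elongator complex, at -0.21 ± 0.054 and RMP24, a protein of RNase MRP, at -0.12 ± 0.053.

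Membrane traffic and autophagy genes were mixed, with a median of -0.28 over 6. MYO5B, the motor that carries recycling endosomes, read 10.76, 10.77 and 10.74 in H69 and 9.88, 9.57 and 9.65 in H69M (-1.06 ± 0.084). PIK3C3, the lipid kinase VPS34 that starts autophagosomes, went the other way, from 10.15, 10.18 and 10.33 to 10.51, 10.62 and 10.66 (0.38 ± 0.073). PIK3C3 lies between CELF4 and SETBP1, both much lower, across a gene-poor stretch. IER3IP1, a protein of transport between the endoplasmic reticulum and the Golgi, stood at -0.38 ± 0.066. EPG5, which fuses autophagosomes with lysosomes (-0.17 ± 0.086), had overlapping arrays, and the tethering factor gene TRAPPC8 stood at -0.14 ± 0.058. Neither EPG5 nor TRAPPC8 passed the threshold.

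Of the 9 cytoskeleton and mitosis genes, 8 lay below 0 (median -0.28). The sarcomeric formin gene FHOD3 (-0.91 ± 0.079) and the dystrobrevin gene DTNA (-0.81 ± 0.071) were lowest. HAUS1, a subunit of the spindle factor augmin, read 11.44, 11.57 and 11.48 in H69 and 11.28, 11.25 and 11.13 in H69M (-0.28 ± 0.067). MAPRE2, a protein of growing microtubule ends, read 10.67, 10.61 and 10.63 in H69 and 10.56, 10.41 and 10.43 in H69M (-0.17 ± 0.064). TPGS2, a subunit of tubulin polyglutamylase, read 11.98, 11.98 and 11.94 in H69 and 11.85, 11.81 and 11.81 in H69M (-0.14 ± 0.053). MAPRE2 and TPGS2 did not pass the threshold although their arrays did not overlap. KATNAL2, a katanin-like protein, overlapped between the lines (-0.046 ± 0.069). KIAA1328 stood at -0.51 ± 0.077 on a probe set whose 10 neighbours in number all belong to chromosome 3, and at -0.58 on its other probe set, whose neighbours belong to chromosome 18. PSTPIP2, an actin-bundling protein, was higher, at 6.92, 6.95 and 6.70 in H69 and 7.18, 7.68 and 8.03 in H69M (0.77 ± 0.19), with the widest spread between arrays of all members (SD 0.42 in H69M, n = 3).

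Metabolic enzymes other than LIPG lay between -0.67 and -0.24. HDHD2, a phosphatase-like protein, read 11.26, 11.19 and 11.11 in H69 and 10.61, 10.46 and 10.47 in H69M (-0.67 ± 0.070). CHST9, which sulfates N-acetylgalactosamine, stood at -0.67 ± 0.10 and ME2, the mitochondrial malic enzyme, at -0.24 ± 0.074. With ACAA2 these 4 genes lay in the band from -0.7 to -0.1, which was set after the values were seen.

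The level of the members was taken as the mean over all 6 arrays, in which both lines count equally. The median level of all genes was 7.16, and 38 members lay at or above it. Of these 38, 35 were below 0, with a median of -0.49; SS18, PIK3C3 and PSTPIP2 were higher. The other 3 were LIPG and KCTD1, both higher, and KATNAL2. A gene can still pass this level through 1 line alone. ZBTB7C passed through H69 (8.49, against 6.48 in H69M) and PSTPIP2 through H69M (7.63, against 6.86 in H69). LIPG and KCTD1 did not pass, although both stood at 7.93 in H69M. The split by level is thus not independent of the fold changes, here and in the stretches described below. The fold changes of the 38 had an SD of 0.59, against a median standard error of 0.074. All genes at or above that level had an SD of 0.75.

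**Figure D3:**
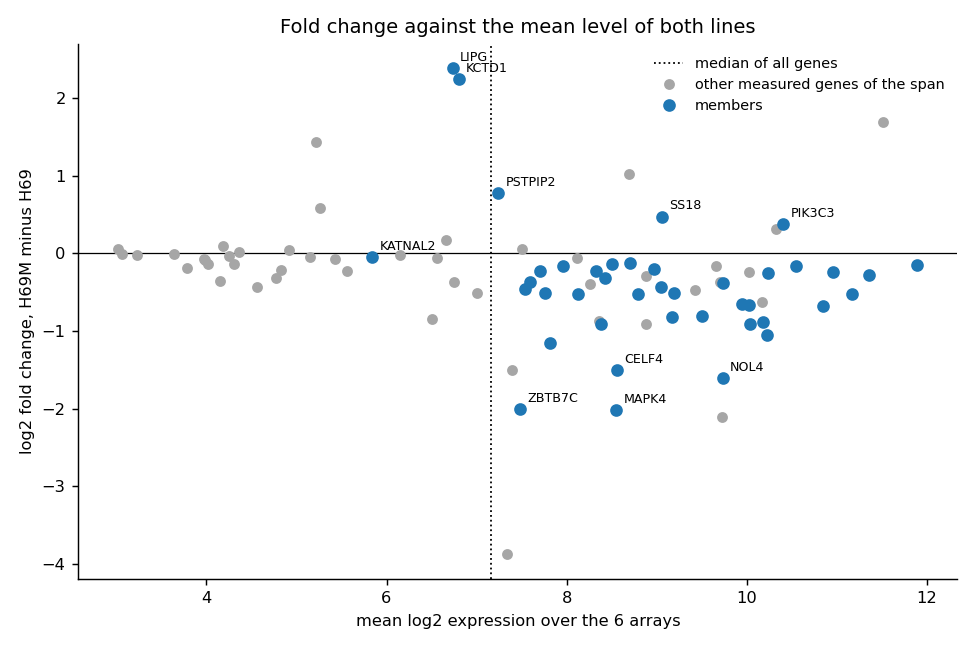
Log2 fold change, H69M minus H69 (vertical axis), against the mean log2 expression over the 6 arrays (horizontal axis) for the 41 members (blue) and the 45 other genes of the span (grey); the dotted line is the median level of all genes, 7.16. To its right 35 of 38 members lie below 0, and to its left LIPG and KCTD1 lie above 2.

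The 45 other measured genes of the span are those that the choice of members on this comparison left over, so their shares are a description and no independent support. By the same limma threshold, 16 fell (35.6%, beside 23.2% of all genes) and 5 rose (11.1%, beside 21.0%), with a median of -0.14 against -0.041 for all genes. That median was -0.055 after quantile normalization was applied again, and -0.37 once genes below the 25th percentile or the median of the mean level were left out. Many of them had low signal in both lines; of 7 desmosomal cadherin genes, a group picked after the values were seen, DSG2 rose and 6 did not pass. In the 17 genes at or above the median level over the 6 arrays, 11 fell (64.7%, beside 30.4% of all genes at that level) and 3 rose (17.6%, beside 26.3%). In the 28 below it the median was -0.067. Of the 6 that changed at least 2-fold, 3 fell. MEP1B, a meprin protease subunit, read 9.31, 9.37 and 9.15 in H69 and 5.77, 5.20 and 5.22 in H69M (-3.88 ± 0.15; limma adjusted p = 8.35e-07). The vesicle protein gene SYT4 (-2.11 ± 0.11; limma adjusted p = 3.6e-06) and SKOR2, a neural corepressor (-1.50 ± 0.12; limma adjusted p = 2.92e-05), also fell. The cadherin genes CDH2 (1.69 ± 0.070; limma adjusted p = 1.11e-06) and DSG2 (1.02 ± 0.10; limma adjusted p = 0.000126) and the urea transporter gene SLC14A1 (1.44 ± 0.29; limma adjusted p = 0.00491) rose.

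The lower values did not end at the last member. After ELAC1, towards the end of the long arm, 43 of 95 measured genes fell (45.3%, beside 23.2% of all genes) and 17 rose (17.9%, beside 21.0%). At or above the median level over the 6 arrays 36 of 54 fell (66.7%, beside 30.4%) and 6 rose (11.1%, beside 26.3%), with a median of -0.36. Before SS18, a stretch that takes in the short arm, 26 of 83 fell (31.3%, beside 23.2%) and 22 rose (26.5%, beside 21.0%). At or above the median level 23 of 57 fell there (40.4%, beside 30.4%) and 14 rose (24.6%, beside 26.3%), with a median of -0.13. Whether these stretches differ from each other was not tested, since neighbouring genes are not replicates. By the median of all its genes chromosome 18 ranked 2nd lowest of 23 chromosomes (-0.14 over 264 genes), after chromosome 22 (-0.18) and before chromosome 6 (-0.11). Those 264 genes include the members, chosen as lower on these arrays, so the rank is a description. Outside the span, the medians over all levels were -0.086 before it and -0.12 after it. Within the block, the 20 members up to CELF4 had a median of -0.49 and the 21 from PIK3C3 on one of -0.38, with SDs of 0.81 and 0.89. Outside the span, the 13 genes of chromosome 18 with the largest changes comprised 11 that rose, led by the kinase gene YES1 (4.23 ± 0.11; limma adjusted p = 1.4e-07), and 2 that fell, CDH20 (-4.04 ± 0.20; limma adjusted p = 2.87e-06) and PTPRM (-3.54 ± 0.15; limma adjusted p = 1.16e-06).

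**Figure D4:**
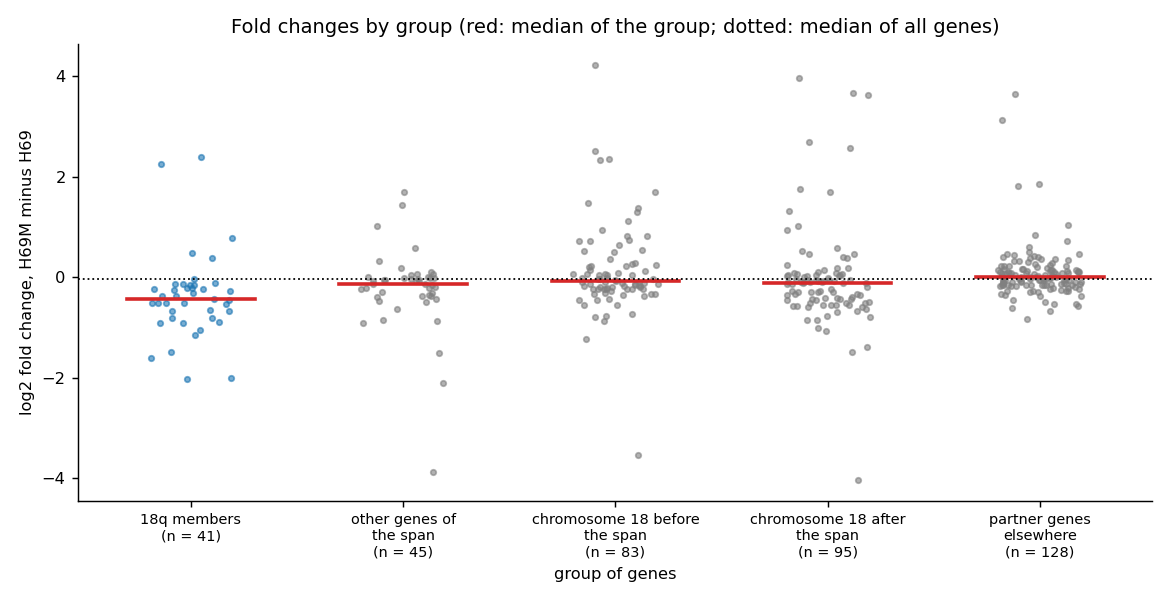
Log2 fold changes, H69M minus H69 (vertical axis), of single genes in 5 groups: the 41 members, the 45 other genes of the span, the 83 genes of chromosome 18 before it, the 95 after it and 128 partner genes on other chromosomes; red bars are medians and the dotted line is the median of all genes, -0.041. The members' median (-0.43) is the lowest, and the partners' median is -0.0032.

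Genes that work with the members but lie on other chromosomes were also measured. Of 137 listed paralogues and complex partners, 128 were measured. Among them 23 fell (17.97%, beside 23.2% of all genes) and 30 rose (23.4%, beside 21.0%), with a median of -0.0032. Of the 30 members with a measured partner, 24 read lower than the median of their partners; SS18, KCTD1, LIPG, PIK3C3, MAPRE2 and KATNAL2 did not. That comparison is a description, since the members were listed as lower. Of the 18 measured partners of SS18 in the BAF complex 6 fell and 3 rose, the largest fall being in BCL7A (-0.54 ± 0.074; limma adjusted p = 0.000586). TFIID subunits gave 2 falls and 1 rise of 13, and the 13 TRAPP subunits gave 3 and 4. These small counts stand beside 23.2% of all genes lower and 21.0% higher, and nothing is read from them. The 4 measured partners of ASXL3 lay between -0.050 and 0.13 (median 0.099).

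Some paralogues and complex partners went against their member on 18q. MYO5A read 6.82, 6.80 and 6.70 in H69 and 8.43, 8.71 and 8.60 in H69M (1.81 ± 0.082; limma adjusted p = 1.67e-06), and MYO5C rose by 1.85 ± 0.12 (limma adjusted p = 1.15e-05), while MYO5B was lower. ME1, the cytosolic malic enzyme, read 4.41, 4.25 and 4.38 in H69 and 7.88, 8.14 and 7.95 in H69M (3.64 ± 0.084; limma adjusted p = 8.83e-08). The mitochondrial enzyme gene ME3 fell (-0.83 ± 0.061; limma adjusted p = 2.1e-05). In the dystrophin complex around DTNA, UTRN rose by 3.13 ± 0.18 (limma adjusted p = 5.29e-06), SNTB1 by 1.04 ± 0.20 and SNTB2 by 0.71 ± 0.068 (limma adjusted p = 0.00344 and 8.5e-05). DTNB fell with DTNA (-0.33 ± 0.081; limma adjusted p = 0.0114), and DMD did not pass (0.089 ± 0.060). HADHB, a subunit of the trifunctional enzyme of fatty acid beta oxidation, rose by 0.83 ± 0.058 (limma adjusted p = 1.48e-05). The polyglutamylase gene TTLL1 rose by 0.60 ± 0.074 (limma adjusted p = 0.000354). CELF2 (-0.57 ± 0.078; limma adjusted p = 0.000619), MAPRE3 (-0.62 ± 0.17; limma adjusted p = 0.0178) and RPP25 (-0.68 ± 0.098; limma adjusted p = 0.000776) fell. Of their members on 18q, CELF4 was called lower, and MAPRE2 and RMP24 were not. CELF2 was dim in both lines, at 4.89 in H69 and 4.32 in H69M, beside a median level of 7.16 over all genes.

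The medians of the members were alike on the arrays of a line. Set against each gene's mean in H69, the median over the members was 0.0043, 0.015 and -0.015 on the H69 arrays and -0.44, -0.44 and -0.41 on the H69M arrays. The 2 sets of 3 did not overlap, which is built in, since the members were chosen as lower on these same arrays. Over all genes the H69M arrays stood at -0.0045, -0.065 and -0.043. For single members H69M replicate 1 was often the array nearest to H69, in 25 of the 36 members below 0, yet the median on that array was no nearer to 0.

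Cell type markers moved with the lines, and their part in the members' values was not tested. All 12 fibroblast and mesenchymal markers rose by limma, with a summed linear signal of 915 to 948 over the H69 arrays and 19350 to 22540.5 over the H69M arrays; none was at 0 on this scale, which has no detection call, and DCN was the lowest in H69M (4.73 in log2). Of 11 measured neuroendocrine markers 9 fell by limma, CHGA and UCHL1 not passing, and the sum went from 13907 to 14323 in H69 to 8136 to 9360 in H69M. Of 6 leukocyte markers 4 fell and 1 rose, with sums of 257 to 274 and 273 to 283. SYT4, a neuroendocrine marker, is itself a gene of the span. In such bulk RNA, fewer cells of a type and less RNA per cell cannot be told apart.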

How the data were processed

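The deposited values are log2 expression per probe set, which the authors made with RMA, per the submitters' processing notes; RMA usually includes background correction, quantile normalization and a summary over probes, and it compresses folds of dim genes. For its version and the build, "not given in the sources used here" applies. Of 32321 probe sets, 19158 had 1 gene symbol, 1388 several and 11775 none in the platform annotation. They gave 18404 genes, each by its probe set with the highest mean; 19128 probe sets matched RefSeq (GRCh38.p14) by Entrez ID, which gave the gene order. All 6 arrays entered a limma 3.58.1 fit under R 4.3.3 (lmFit, eBayes, trend off, group only, two-sided), with p-values adjusted over all genes by Benjamini-Hochberg; intervals are limma's. The code was tested on simulated data. Python 3.11.15 made summaries and plots.

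Members, partner lists and markers were chosen with earlier results of these data known. All members were named; past the threshold, other genes of the span at a log2 change of at least 1 (up to 15), the 15 largest such changes over all non-members of chromosome 18, span included, and partners at 0.5 (up to 20) were eligible. The split by mean level over the 6 arrays was chosen after seeing the data. Nothing says that the 3 arrays of a line came from separate cultures, so p-values measure the spread between arrays, which may be technical, and their number limits precision. Alternatives were the replicate block, centred arrays, quantile normalization again, dim genes left out (below the 25th percentile or the median), eBayes trend, averaged probe sets, and leaving out each array.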

Additional observations from a re-analysis of the deposited data

How the results depend on the processing

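Over 13 alternatives the members kept their direction in 529 of 530 values; the exception was KATNAL2, which ranged from -0.11 to 0.0011 without single arrays, the latter without H69M replicate 2 (limma adjusted p = 0.993). ELP2, ME2 and ELAC1 lost their call under at least 1 alternative, and TRAPPC8, MAPRE2, RMP24, TPGS2, EPG5 and CTIF gained one. The replicate numbers did not pair the arrays: deviations of same-numbered arrays correlated at 0.021, 0.0072 and 0.0099, and 0 of 6 arrays correlated best with their own number. With the replicate number as a block, 28 members were called lower and 5 higher, and 3617 genes of all rose and 4021 fell.

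The members' median was -0.40 with centred arrays and -0.49 without genes below the median, where 3 members were higher; leaving out single arrays gave -0.50 to -0.41. Up to CELF4 the median was -0.46 with centred arrays, -0.51 to -0.46 without single arrays, and 1 member was higher without genes below the median. From PIK3C3 on it was -0.43 without those genes, -0.31 with the mean of probe sets, because IER3IP1 has a second, dim probe set, and -0.40 to -0.34 without single arrays. The other genes of the span had -0.055 after quantile normalization, with 5 rises. Their median was -0.37 without genes below the 25th percentile or the median, with 3 rises under either filter. Without single arrays it was -0.17 to -0.086. Before the span it was -0.030 after quantile normalization, -0.13 with 14 rises without genes below the median, and -0.097 to -0.027 without single arrays. After the span it was -0.29 without genes below the 25th percentile, -0.36 with 6 rises without those below the median, and -0.16 to -0.099 without single arrays. The partners had 0.027 with centred arrays and -0.018 to 0.021 without single arrays, and all genes -0.0064 after quantile normalization. Where no cause is named, the cause was not tested.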

Other observations

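A few probe sets annotated to genes of the span carry several gene symbols and entered no comparison. The probe set shared by RPL17-C18orf32 and C18orf32 had means of 10.12 (H69) and 9.60 (H69M) in log2 over 3 arrays each, a difference of -0.52. Those shared by RPL17-C18orf32 and RPL17 stood at 11.02 and 10.88 and at 11.84 and 11.71, a difference of -0.13 each. Their numbers lie far from that of the RPL17 probe set with a single symbol, and whether they read the 18q locus was not tested.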
